A study of Rattus norvegicus with 18 samples.

Results

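The pyruvate dehydrogenase complex, the kinases that switch it off and the carrier that brings its substrate into the mitochondrion were followed through left ventricles of rats. The 10 genes were taken by symbol from the 3 tables of changed genes that the authors deposited: Pdha1, Pdhb, Dlat, Dld and Pdhx for the complex, Pdk1, Pdk2 and Pdk4 for the kinases, and Mpc1 and Mpc2 for the carrier. All 10 symbols were found, in both tables that involve obese rats, among 6588 genes listed in at least 1 table. The study sequenced polyadenylated RNA of 18 male rats, 6 per group. ZSF1 Obese rats, which combine hypertension with metabolic syndrome, stand for heart failure in which the ejection fraction is preserved. ZSF1 Lean rats are hypertensive alone, and WKY (Wistar Kyoto) rats are the wild-type control. Obese ZSF1 rats are known to have only mutant alleles of the leptin receptor gene, whereas lean ZSF1 rats keep a working allele. WKY is another strain, and in each comparison with it the genetic background changes along with the disease. The labels used here give neither age nor treatment, and each library stands for 1 ventricle with all its cell types.

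Pyruvate made from glucose or lactate crosses the inner mitochondrial membrane through a carrier formed by MPC1 and MPC2. In the matrix the pyruvate dehydrogenase complex turns it into acetyl-CoA for the citric acid cycle, a step that cannot be reversed and that commits carbohydrate to oxidation. The E1 enzyme is built of PDHA1 and PDHB, DLAT is the acetyltransferase E2 that forms the core, DLD is the dehydrogenase E3, and PDHX ties E3 to the core. Kinases of the PDK family phosphorylate E1 and stop it, and the phosphatases PDP1 and PDP2 remove the phosphate. PDK4 and PDK2 are the main kinases of the heart, and Pdk4 is a well known target of the fatty acid receptor PPARA and of FOXO1 that rises in fasting and diabetes.

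The sequences just upstream of the kinase genes and of Pdhb are shown because the kinase genes had the lowest values among the members while Pdk3, the remaining gene of the kinase family, was listed higher, and because the Pdhb window was the single one of a member to hold the FOXO core. Each runs 5′ to 3′ on the gene's own strand from 250 bases before the annotated transcription start through 50 bases from it, taken from RefSeq on build GRCr8, with matches in capitals to any of 4 motifs on either strand: AGGTCA (half-site of nuclear receptors), GTAAACA (FOXO core), ACGTG (hypoxia response core) and GGGCGG (GC box).
Pdk2, chr10:80483863-80484162, minus strand: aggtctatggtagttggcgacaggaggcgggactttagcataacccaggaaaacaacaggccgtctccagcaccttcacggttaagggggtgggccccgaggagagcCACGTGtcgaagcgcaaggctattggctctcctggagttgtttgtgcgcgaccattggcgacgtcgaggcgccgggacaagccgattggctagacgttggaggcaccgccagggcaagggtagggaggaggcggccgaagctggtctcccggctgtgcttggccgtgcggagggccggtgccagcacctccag
Pdk4, chr4:34568280-34568579, minus strand: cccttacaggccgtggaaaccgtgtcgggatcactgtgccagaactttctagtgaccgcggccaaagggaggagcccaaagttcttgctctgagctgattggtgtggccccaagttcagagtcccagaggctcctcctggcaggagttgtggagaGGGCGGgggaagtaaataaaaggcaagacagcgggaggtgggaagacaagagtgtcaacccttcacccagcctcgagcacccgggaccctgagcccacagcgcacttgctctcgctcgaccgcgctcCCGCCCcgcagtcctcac
Pdk1, chr3:77113264-77113563, plus strand: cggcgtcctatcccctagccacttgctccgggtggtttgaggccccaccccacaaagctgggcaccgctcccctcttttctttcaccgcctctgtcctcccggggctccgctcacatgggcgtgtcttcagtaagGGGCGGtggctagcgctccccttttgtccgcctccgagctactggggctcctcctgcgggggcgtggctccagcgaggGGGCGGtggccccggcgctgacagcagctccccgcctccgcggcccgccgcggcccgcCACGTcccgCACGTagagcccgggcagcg
Pdk3, chrX:62547322-62547621, minus strand: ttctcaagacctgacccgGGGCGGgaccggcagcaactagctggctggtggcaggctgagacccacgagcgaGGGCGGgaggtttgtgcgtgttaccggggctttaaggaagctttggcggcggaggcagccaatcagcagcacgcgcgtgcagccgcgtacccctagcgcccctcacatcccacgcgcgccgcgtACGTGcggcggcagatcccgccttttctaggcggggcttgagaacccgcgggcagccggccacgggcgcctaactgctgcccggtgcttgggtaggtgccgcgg
Pdhb, chr15:19182539-19182838, plus strand: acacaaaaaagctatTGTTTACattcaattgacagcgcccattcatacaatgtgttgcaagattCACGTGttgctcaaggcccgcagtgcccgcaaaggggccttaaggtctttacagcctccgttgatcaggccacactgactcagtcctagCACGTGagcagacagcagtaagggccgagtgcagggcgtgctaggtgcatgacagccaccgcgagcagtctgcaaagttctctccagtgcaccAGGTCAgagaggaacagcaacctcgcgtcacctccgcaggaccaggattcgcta

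A match is a run of letters and not a shown binding site. The Pdk2 window held ACGTG on both strands as the palindrome CACGTG, at positions -143 to -138 from the start, and the Pdhb window held that palindrome at 2 places. The Pdk4 window held 2 GC boxes and no match to the other letters. Sequence outside the windows was not searched, so sites further from a start would be missed. The Pdk1 window held ACGTG at 2 places downstream of the start and 2 GC boxes upstream. Among the 10 members the half-site AGGTCA was found for Pdhb and Dlat, GTAAACA for Pdhb, ACGTG for 4 genes and the GC box for 7. Of all 33469 RefSeq promoter windows of this length, 16.2% held the half-site, 3.78% the FOXO core, 19.3% the hypoxia core and 33.1% the GC box. Among the 21851 windows of protein-coding genes, the kind to which all 10 members belong, the shares were 14.2% for the half-site, 3.37% for the FOXO core, 19.8% for the hypoxia core and 41.8% for the GC box. The longer estrogen-related receptor core AAGGTCA, which contains the half-site, was in 0 of the 10 windows, in 4.61% of all windows and in 3.78% of the protein-coding ones. The members' windows had a median GC content of 62.1%, against 51.7% over all windows. The GC content of protein-coding windows alone was not worked out, so this comparison is not like for like. Windows were available for all 10 members.

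**Figure D1:**
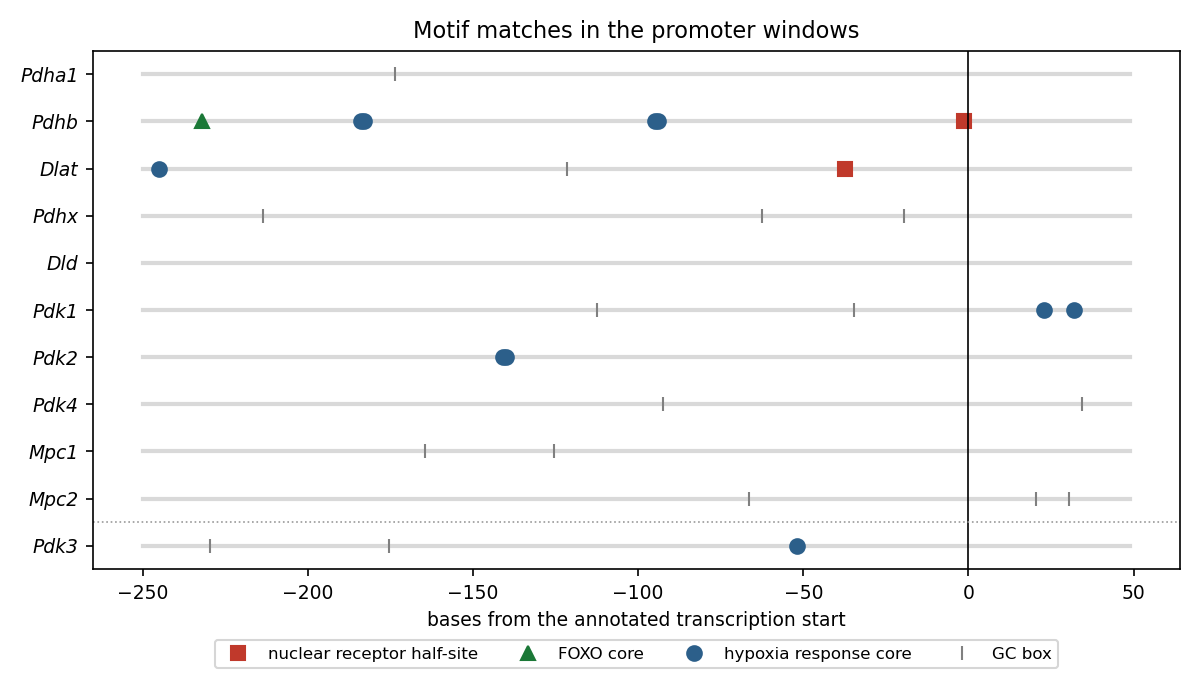
Positions of 4 motifs in the 300-base promoter windows of the 10 members and, under the dotted line, Pdk3; the horizontal axis gives bases from the annotated start (0) and each symbol marks the middle of 1 match on either strand. Half-sites appear for Pdhb and Dlat, and GC boxes for 7 of the 10 members.

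The files give a fold and a false discovery rate (FDR, here called the adjusted p) for each comparison of 6 rats with 6, and only for genes with at least a 2-fold difference and an FDR under 0.05. Values per rat, library depth, mean levels and standard errors were not used here, so the spread between rats enters solely through the adjusted p, and a gene that is not listed may have changed less, failed the FDR or gone undetected. A limit on the error was worked out instead. An adjusted p is never below its own p, so the standard error of a log2 fold cannot exceed the log2 fold divided by the normal score of the adjusted p, provided that the p came from a Wald test on unshrunken folds, the default of DESeq2. For the 18 member values that allow it, this upper limit lay between 0.116 for Pdhb (obese against lean) and 0.294 for Mpc2 (obese against WKY) on the log2 scale. The 95% intervals given below are built on it and are therefore wide rather than narrow.

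Obese and lean ZSF1 hearts, hypertensive in both groups, were compared to see what goes with metabolic syndrome. All 10 members fell in the obese hearts and 0 rose. In that comparison 46.6% of the 5700 listed genes were lower and 53.4% higher, and 10.7% of 23154 protein-coding symbols of the RefSeq annotation, expressed in heart or not, were listed lower. The median fold of the 10 was 0.136 (log2 -2.88), against 0.314 (log2 -1.67) over all genes listed lower and a median log2 of 1.07 over all listed genes. All 10 lay below the median of the genes listed lower. The kinase genes lay below the median of the subunits, 0.145, and the carrier genes above it.

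The kinase genes stood lowest. In the authors' deposited table Pdk2, the kinase present in most tissues (ENSRNOG00000004172), was at 0.051 of the lean level, with an adjusted p given as 0, which allows no interval. The authors' deposited table placed Pdk4, the kinase induced by fasting (ENSRNOG00000009565), at 0.06 (95% interval 0.0469 to 0.0767, adjusted p = 1.01e-111). Pdk1, a kinase known as a target of the hypoxia factor HIF-1 (ENSRNOG00000001517), was at 0.094 in the authors' deposited table (0.0745 to 0.119, adjusted p = 2.05e-88). Among the 2655 genes listed lower, Pdk2 held rank 32 by fold, Pdk4 rank 52 and Pdk1 rank 132, counted from the lowest fold.

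Subunits of the complex fell 5.99-fold to 10.3-fold. Dlat, the E2 core (ENSRNOG00000009994), was the lowest of the 5 at 0.097 of the lean level in the authors' deposited table (0.0815 to 0.116, adjusted p = 3.75e-151). The authors' deposited table had both E1 genes close together, Pdhb (ENSRNOG00000007895) at 0.128 (0.109 to 0.15, adjusted p = 2.87e-143) and Pdha1 (ENSRNOG00000025383) at 0.145 (0.117 to 0.179, adjusted p = 1.62e-71). Dld, the E3 enzyme that other complexes share (ENSRNOG00000006364), was at 0.146 in the authors' deposited table (0.116 to 0.184, adjusted p = 6.07e-60). Pdhx, the E3-binding protein (ENSRNOG00000006947), was at 0.167 in the authors' deposited table (0.132 to 0.212, adjusted p = 1.04e-49). The intervals of Pdhb, Pdha1, Dld and Pdhx all overlapped one another, and that of Dlat ended below those of Pdha1, Dld and Pdhx.

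The carrier genes fell least. The authors' deposited table gave Mpc2 (ENSRNOG00000003150) as 0.174 of the lean level (0.126 to 0.24, adjusted p = 9.01e-27) and Mpc1 (ENSRNOG00000012415) as 0.295 (0.22 to 0.396, adjusted p = 5.48e-16). Mpc1 had rank 1197 among the 2655 genes listed lower, so that its fold was near the middle of them. In the order from Pdk2 up through Pdk4, Pdk1, Dlat, Pdhb, Pdha1, Dld, Pdhx and Mpc2 to Mpc1, each of the 8 pairs of neighbours with intervals overlapped. Of 28 pairs further apart, 9 overlapped. The interval of Pdk4 lay below those of all 5 subunits, and that of Mpc1 lay above them. The Mpc2 interval overlapped those of Pdhb, Pdha1, Dld and Pdhx. These genes were measured in the same rats, and a test of the difference between 2 genes would need values per rat.

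**Figure D2:**
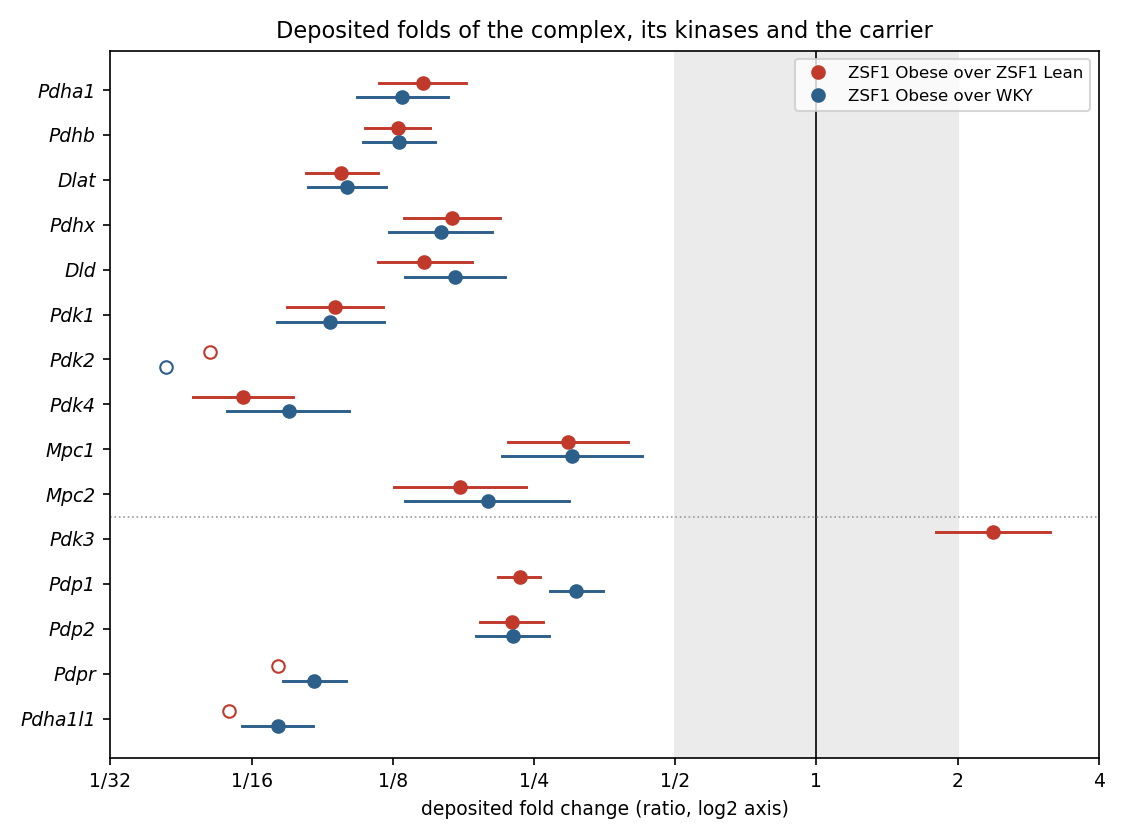
Deposited folds (horizontal axis, ratio on a log2 axis) of the 10 members and, under the dotted line, of Pdk3, the phosphatase genes Pdp1, Pdp2 and Pdpr, and the Pdha1 copy Pdha1l1, for ZSF1 Obese over ZSF1 Lean (red) and over WKY (blue). Bars are 95% intervals from the upper limit of the standard error, open circles have an adjusted p given as 0 and no interval, and no listed gene can fall in the grey band between 0.5 and 2. The members lie between 0.041 and 0.301, and Pdk3, at 2.38, is the single gene to the right.

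The 5 subunits had a median fold of 0.145 against lean hearts, which is the value of Pdha1. By the deposited folds, the ratio of kinase to subunit mRNA was lower in obese than in lean hearts for Pdk2, Pdk4 and Pdk1. That ratio of folds was 0.352 for Pdk2, 0.414 for Pdk4 and 0.648 for Pdk1. For the carrier it was 1.2 for Mpc2 and 2.03 for Mpc1. Each is a quotient of deposited folds, free of how the libraries were scaled but not of cell composition, and has no test of its own. The Pdk1 interval overlapped those of Dlat, Pdhb, Pdha1 and Dld, so Pdk1 was not set apart from most subunits. The Pdha1 value is itself uncertain, for a reason given below.

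The phosphatase side of the switch and the remaining kinase were followed in a list of 4 genes, of which 3 fell and 1 rose. Pdp1, the calcium-stimulated phosphatase, was at 0.233 of the lean level in the authors' deposited table (0.21 to 0.258, adjusted p = 4.3e-167), and Pdp2 at 0.224 (0.192 to 0.261, adjusted p = 3.61e-80). Pdpr, the regulatory subunit that restrains PDP1, was at 0.071 in the authors' deposited table, with an adjusted p given as 0. Pdk3 rose, and its fold in the authors' deposited table was 2.38 (1.8 to 3.15, adjusted p = 1.54e-09). The 4 kinase genes thus split into 3 that fell and 1 that rose. Against the subunit median, the ratio of folds was 1.61 for Pdp1 and 1.54 for Pdp2, above those of Pdk1, Pdk2 and Pdk4, while it was 0.49 for Pdpr and 16.4 for Pdk3. These numbers concern mRNA from all cell types of the ventricle together, and neither enzyme amount nor phosphorylation of E1 was measured.

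Cell type markers moved with the same groups. Of 15 cardiomyocyte markers 9 fell against lean hearts, with folds from 0.084 for Atp2a2, which encodes the calcium pump SERCA2, to 0.384 for Mybpc3 in the authors' deposited table and a median of 0.334. Myh7, Tnnt2, Tnni3, Myl2, Ttn and Pln were not listed. Markers of fibroblasts (6 of 10), macrophages (9 of 10) and endothelium (9 of 10) rose and 0 of each fell. Their median folds were 4.63, 3.32 and 3.51. Of all 5700 genes listed in that comparison, 46.6% were lower and 53.4% higher. The share of protein-coding symbols listed higher was not worked out. Not listed were the fibroblast markers Pdgfra, Tcf21, Col1a2 and Dcn, the macrophage marker Cd163 and the endothelial marker Pecam1. In these bulk samples fewer cardiomyocytes and less of an mRNA per cardiomyocyte cannot be told apart. All 10 members were below the median of the listed cardiomyocyte markers, their own median fold was 0.408 times that of the markers, and Pdk2 and Pdk4 were below the lowest marker. The part of cell composition in the members' values was not tested. Levels were not used here, so the labelled tissue could not be checked against its markers.

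**Figure D3:**
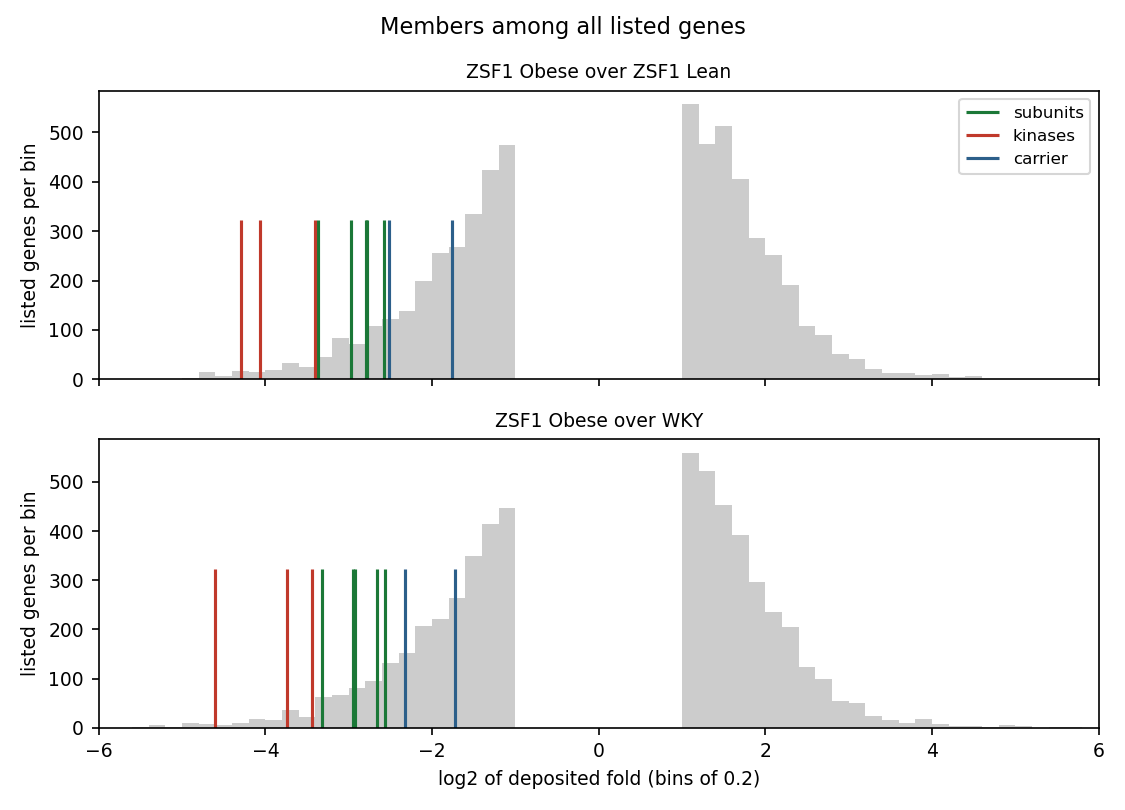
Histograms of the log2 of the deposited fold over all listed genes (grey, vertical axis in genes per bin of 0.2) for ZSF1 Obese over ZSF1 Lean (top) and over WKY (bottom), with a line for each member: subunits green, kinases red, carrier blue. The 10 members lie in the lower arm, from -4.29 to -1.76 in the top panel, and 4 genes of the lower panel lie outside the limit of 6.

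In ZSF1 Obese against WKY, the comparison with the control strain, all 10 members fell again and 0 rose. Both comparisons use the same 6 obese hearts, so the second is not a repeat of the first. Of 5709 listed genes 46.0% were lower and 54.0% higher, and 10.6% of the protein-coding symbols were listed lower. The members' median fold was 0.13 (log2 -2.94), against 0.312 over all genes listed lower and a median log2 of 1.08 over all listed genes. The authors' deposited table gave Pdk2 at 0.041 of the WKY level with an adjusted p given as 0, Pdk4 at 0.075 (0.0555 to 0.101, adjusted p = 4.86e-64) and Pdk1 at 0.092 (0.0708 to 0.12, adjusted p = 5.04e-71). Pdk2 had rank 24 of 2625 by fold. For the subunits the authors' deposited table had Dlat at 0.1 (adjusted p = 5.89e-123), Pdhb at 0.129 (adjusted p = 2.01e-117), Pdha1 at 0.131 (adjusted p = 3.15e-70), Pdhx at 0.158 (adjusted p = 1.56e-46) and Dld at 0.17 (adjusted p = 3.35e-45). The carrier genes again stood highest in the authors' deposited table, Mpc2 at 0.199 (0.133 to 0.297, adjusted p = 2.53e-15) and Mpc1 at 0.301 (0.214 to 0.424, adjusted p = 6.46e-12).

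The order of the members against WKY was that against lean hearts apart from an exchange of Pdhx and Dld, whose intervals overlapped in both. All 8 pairs of neighbours with intervals overlapped here too, and 11 of 28 pairs further apart. The Pdk4 interval lay below those of Pdhb, Pdha1, Pdhx and Dld but met that of Dlat. The Mpc1 interval overlapped that of Dld here, and the Mpc2 interval those of Pdhb, Pdha1, Pdhx and Dld. In the list of 4, the authors' deposited table held Pdp1 at 0.308 (0.271 to 0.35, adjusted p = 5.45e-74), Pdp2 at 0.225 (adjusted p = 8.26e-60) and Pdpr at 0.085 (adjusted p = 2.3e-214). Pdk3 was not listed against WKY, and whether its difference from WKY is another than that from lean hearts was not tested. The ratio of folds to the subunit median, 0.131 here, was 0.313 for Pdk2, 0.573 for Pdk4, 0.702 for Pdk1 and 2.35 for Pdp1. That median is again the Pdha1 value, and the Pdk1 interval overlapped those of Dlat, Pdhb and Pdha1. Of the cardiomyocyte markers 9 of 15 fell, with a median fold of 0.299, and 9 of the 10 members were below that median, Mpc1 being the exception. Fibroblast (8 of 10), macrophage (10 of 10) and endothelial (9 of 10) markers rose, and their part in the members' values was not tested. These counts stand beside 54.0% of all listed genes being higher, and the share of protein-coding symbols was again not worked out. The fibroblast markers Pdgfra and Tcf21 and the endothelial marker Pecam1 were not listed here either.

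ZSF1 Lean against WKY asks what hypertension in the lean strain does without obesity, with strain and hypertension differing together. None of the 10 members and 0 of 60 genes in the other lists of the pathway were among its 233 genes, which hold 0.881% of the protein-coding symbols. With so few genes listed, 0 of 10 does not set the members apart from other genes. The largest FDR in that table was 0.000347, far below the limit of the other tables, so a gene with a 2-fold difference and a larger FDR may be missing from it. The quotient of the obese comparisons gives an arithmetic estimate in its place. Lean over WKY, it was 1.25 for Pdk4 (log2 0.32), 0.804 for Pdk2 (log2 -0.31), 1.16 for Dld, 1.14 for Mpc2 and between 0.903 and 1.03 for the other 6 members. All 10 were within 2-fold, with 6 above and 4 below 1. After the median offset of 0.22 (log2) between this quotient and the lean table was subtracted, 1 (Pdk4) was above, 8 were below and Dld was at 0.00. In each of the 79 genes behind that offset, the gap had the quotient's own direction. The offset is thus not a shift shared by all genes, and subtracting it does not settle the members' directions. The sum of the limits on both standard errors bounds the error of the log2 quotient whatever the shared obese hearts do, under the condition on the tests given above, and lay between 0.245 for Pdhb and 0.53 for Mpc2. For each of the 9 members with such a limit the 95% interval held 0, and for Pdk2 there was none. For the 79 genes in all 3 tables this quotient had the direction of the deposited lean value in 79 and was further from 1 in 79, with a median absolute gap of 0.34 on the log2 scale. The quotient and the lean table thus differ in scale, and the cause was not tested. Whether any of the tables holds shrunken folds is not known, and the 95% intervals would not hold for a table that does.

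Pdha1 needs a caution of its own. Pdha1l1 (ENSRNOG00000014745), which the deposited description calls alpha 1-like and RefSeq classes as a pseudogene, was looked up after the values were seen. It stood at 0.056 of the lean level (adjusted p given as 0) and at 0.071 of the WKY level (adjusted p = 7.64e-196) in the authors' deposited table, lower than Pdha1 in both. The sources used here do not say how reads matching both loci were counted, which leaves the Pdha1 value uncertain. RefSeq also names Dlat-ps1, Dld-ps1 and genes or pseudogenes called Mpc1l, none of which was listed. Since every member fell in both obese comparisons, the 6 with no such copy did so by construction. Their median log2 fold was -3.19 against lean hearts and -3.2 against WKY.

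Enzymes built like pyruvate dehydrogenase fell alongside it. The list of sister 2-oxoacid dehydrogenases and their regulators held 9 genes, among them those of the 2-oxoglutarate and branched-chain keto acid complexes, which share E3. Of these 9 genes, 7 fell and 0 rose in each obese comparison, with median folds of 0.167 against lean and 0.171 against WKY. For this list and those that follow, the shares listed lower among protein-coding symbols were 10.7% against lean and 10.6% against WKY. Among all listed genes, 46.6% and 46.0% were lower. In the authors' deposited table Ogdh, E1 of the 2-oxoglutarate complex, was at 0.03 of the lean level and 0.035 of the WKY level. The E2 genes Dbt and Dlst were at 0.152 and 0.167 against lean hearts in the authors' deposited table, and Ppm1k, the phosphatase of the branched-chain complex, was at 0.122. Bckdk, the kinase of that complex, and Dhtkd1 were not listed. Of 10 genes that supply lipoate to the E2 arms or thiamine to E1, 5 fell and 0 rose in each comparison. The authors' deposited table had Lias, the lipoate synthase, at 0.259, Lipt1, a lipoyl transferase, at 0.245 and Bola3, an iron-sulfur cluster factor, at 0.418 of the lean level.

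On the side of pyruvate supply and use, 11 of 14 genes fell and 1 rose against lean hearts, and 10 fell and 2 rose against WKY. Slc16a1, the monocarboxylate transporter MCT1, was at 0.087 of the lean level in the authors' deposited table (adjusted p = 1.02e-241), while Slc16a3, the transporter MCT4 known for lactate export, rose 2.64-fold against lean (adjusted p = 1.06e-05) and 2.3-fold against WKY there. Pkm, which makes pyruvate, was at 0.225 and Ldha at 0.291 of the lean level in the authors' deposited table. Pc, which carboxylates pyruvate to oxaloacetate, was at 0.163 and the cytosolic malic enzyme gene Me1 at 0.14 in the authors' deposited table. Me2, the mitochondrial NAD-linked malic enzyme, was listed higher against WKY (fold 2.08, adjusted p = 9.22e-05) in the authors' deposited table and was not listed against lean. Of 8 genes where acetyl-CoA enters or leaves, 6 fell and 1 rose in each comparison. The authors' deposited table had Crat, the carnitine acetyltransferase that buffers mitochondrial acetyl-CoA, at 0.075 of both the lean and the WKY level, Cs at 0.095 and Acss1, the mitochondrial acetyl-CoA synthetase, at 0.097 of the lean level. Slc25a1, the citrate exporter, rose 2.73-fold against lean and 2.48-fold against WKY in the authors' deposited table.

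Most known regulators of the kinase genes were listed lower as well. Of 15, 9 fell and 1 rose against lean hearts, and 10 fell and 1 rose against WKY, the rest not being listed. Among protein-coding symbols, 10.7% and 10.6% were listed lower. Any action of these regulators on the kinase genes in these hearts was not tested. Ppara, the fatty acid receptor that acts on Pdk4, was at 0.115 of the lean level (adjusted p = 1.63e-62) and 0.116 of the WKY level in the authors' deposited table. Ppargc1a, a coactivator that drives mitochondrial genes, was at 0.135 of the lean and 0.097 of the WKY level in the authors' deposited table. The estrogen-related receptors, which act with PPARGC1A on Pdk4, were at 0.158 for Esrra, 0.041 for Esrrb and 0.129 for Esrrg of the lean level in the authors' deposited table. Foxo1 was at 0.463 and its relative Foxo3 at 0.281 of the lean level in the authors' deposited table. Pparg, the receptor best known from fat cells, rose 2.71-fold against lean (adjusted p = 1.38e-11) and 3.78-fold against WKY in the authors' deposited table. Hif1a, Ppard, Rxrb and Nr3c1, the glucocorticoid receptor gene, were not listed in either obese comparison. Ppargc1b was not listed against lean hearts. Over all 60 genes of these lists 41 fell and 4 rose in each obese comparison, 40 of them falling in both. The median fold of the listed ones was 0.233 against lean and 0.24 against WKY, higher than the members' medians of 0.136 and 0.13. Members and lists were chosen with earlier results of these data known, so this gap is a description only. The median of the sister dehydrogenase list was nearer, at 0.167 and 0.171. Ogdh, at 0.03 and 0.035, lay below every member.

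**Figure D4:**
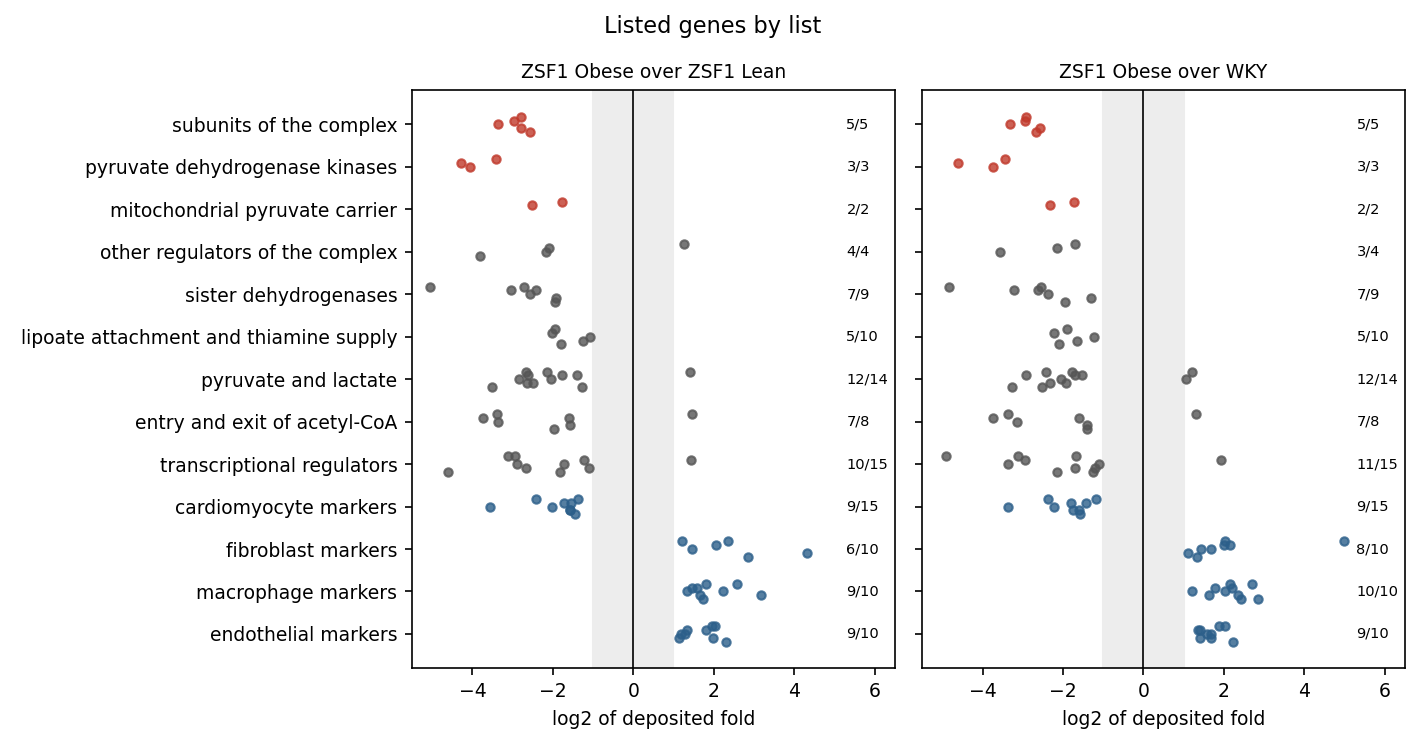
The log2 of the deposited fold for each listed gene of the 3 groups of members (red), 6 pathway lists (grey) and 4 marker lists (blue), for ZSF1 Obese over ZSF1 Lean (left) and over WKY (right); the numbers at the right of each panel are listed genes over genes in the list. All 10 members are left of 0, as are most of the listed pathway genes and the listed cardiomyocyte markers, while the listed fibroblast, macrophage and endothelial markers are right of it.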

How the data were processed

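Per the labels' protocols, left ventricular RNA was isolated with a column kit and polyadenylated RNA was made into stranded libraries. Per the submitters' processing notes, the build was Rnor_6.0 and the tools HISAT2 2.1.0, HTSeq 0.11.2 and DESeq2 1.22.2. The sources used here give no settings, and the one batch label is the same for every rat. Per the file headers, the deposited values are a linear fold (a ratio) and an FDR, which is an adjusted p-value. Both are the authors' and were used as they stand. No column states the fold's direction, which was read from the order in which each table names its groups.

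Genes were matched by symbol, and each list was counted as listed lower, listed higher or not listed. Log2 folds, quotients of folds, ranks and limits on standard errors were computed with Python 3.11.15, pandas 2.3.3 and SciPy 1.17.1. No test of significance was added. The planned count tests needed counts, which were not used here. The members and lists were chosen with earlier results of these data known. Named genes are the members and, per list and comparison, up to 4 genes by FDR and those against the list's direction. Named outside this rule, after their values were seen, are Pdha1l1, Foxo1, Foxo3, the values of Ldha and Ppargc1a against lean hearts, and genes that were not listed. Some genes that this rule names are not reported here. RefSeq (GRCr8) gave symbols and promoters, and coordinates on it are not those of the files' build. Alternatives were an FDR under 0.001, a 4-fold limit, synonyms, the mean and members left out.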

Additional observations from a re-analysis of the deposited data

How the results depend on the processing

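With an FDR under 0.001, or with synonyms matched, every count of members and of pathway genes in the 3 comparisons was as given. With a 4-fold limit, 9 of the 10 members were lower in each obese comparison, Mpc1 being the one lost, while the pathway genes counted lower went to 25 against lean and 23 against WKY and those counted higher to 0 in both, since fewer genes pass that limit. Leaving out the 4 members with a named copy, an alternative chosen after seeing the data, left 6 lower members in each obese comparison by construction, with median log2 folds of -3.19 against lean and -3.20 against WKY. The mean log2 fold was -3.05 against lean and -3.03 against WKY, and leaving out each member in turn gave medians of -2.97 to -2.79 against lean and -2.95 to -2.93 against WKY. The lean over WKY quotients ran from -0.54 to 0.10 on the log2 scale after the median offset of 0.22 between tables was subtracted, with Pdhb, Dlat, Mpc1 and Mpc2 changing sign. As that offset is not a shift shared by all genes, these changes of sign do not settle a direction. Leaving out rats, other normalizations and filters need counts and were not run. No paired analysis was possible because the files hold no values per rat and the groups share no replicate numbers. Depth is unknown, and genes with smaller changes than 2-fold are outside what these tables can show.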
